A study of Rattus norvegicus with 8 samples.

Results

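The genes described here encode enzymes and membrane proteins of the lysosome, measured in kidneys of male SD rats (Sprague-Dawley, an outbred laboratory strain). The 33 genes were listed by name, and a gene was measured if an array probe carried a RefSeq transcript accession of that gene. By this rule 32 of the 33 had a probe, and all 32 passed the filter on dim probes, out of 21420 genes or unnamed transcripts tested. Naglu, which encodes a heparan sulfate glycosidase, had no probe matched in this way. The study has 2 groups of 4 samples, from rats aged 10 weeks. The Control group received 0.5% methylcellulose, a vehicle, for 4 weeks, and the APL group received 150 mg/kg of APL for 4 weeks. Whether APL was given in the same vehicle is not recorded in the labels. APL is taken to be allopurinol, a xanthine oxidase inhibitor, because the series title names that drug as the cause of kidney fibrosis in these animals. The comparison of APL with Control addresses which lysosomal transcripts differ in such kidneys. The title speaks of tubules, the tissue is labelled kidney, and RNA was measured in bulk, so fewer cells of a type and less RNA per cell cannot be told apart. Nothing in the labels says that the 4 samples of a group were separate animals, and p-values measure the spread between these samples.

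Lysosomes are acidic organelles in which cells break down proteins, glycans, lipids and nucleic acids. Soluble hydrolases reach them mostly through mannose 6-phosphate receptors, a proton pump acidifies the lumen, and heavily glycosylated membrane proteins line the organelle. In the kidney the proximal tubule is rich in lysosomes because it takes up and degrades filtered protein, and macrophages are another lysosome-rich cell type. The transcription factor Tfeb and its relatives activate many lysosomal genes through a promoter element built on the letters CACGTG.

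One array was run per sample, so precision is limited by how few arrays there are. On the processed signal, the 75th percentile ran from 272 to 307 on the Control arrays and from 378 to 497 on the APL arrays. Every value below is log2 of the signal relative to that percentile of its own array, so 0 marks the percentile, and values compare samples for 1 gene, never genes with each other. Control replicate 3 stood apart from the other Control arrays on the second principal component, at -126 against 30.4 to 73.5. Arrays lay on 2 slides with both groups on each. Of the kidney markers, Umod of the thick limb, Slc12a3 of the distal tubule, Aqp2 of the collecting duct and Nphs1 of podocytes were well above background on every array.

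Lysosomal genes did not move as a block. Ctsc, Ctsz, Ctsd and Ctsh, which encode proteases, were higher with APL, while the cation channel Mcoln1, the sialidase Neu1, the phosphatase Acp2, the membrane glycoprotein Lamp1 and the protease Ctsl were lower. The adjusted p was under 0.05 (limma, Benjamini-Hochberg over all genes) for 9 of 32 genes, or 28.1%, against 23.5% of all genes tested. By direction 4 were higher and 5 lower, where the whole array had 11.9% higher and 11.5% lower, so the share of lysosomal genes called was near the background. Their median log2 fold change was 0.13, and it was -0.03 over all genes. The APL values lay wholly above the Control values for 6 genes and wholly below them for 5, against 14.0% and 15.9% of all genes. Without Control replicate 3 the count was 6 higher and 3 lower, or 28.1% called against 19.6% of all genes. Lamp1 and Ctsl then lost their calls, and Npc2 and Gaa gained one.

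**Figure D1:**
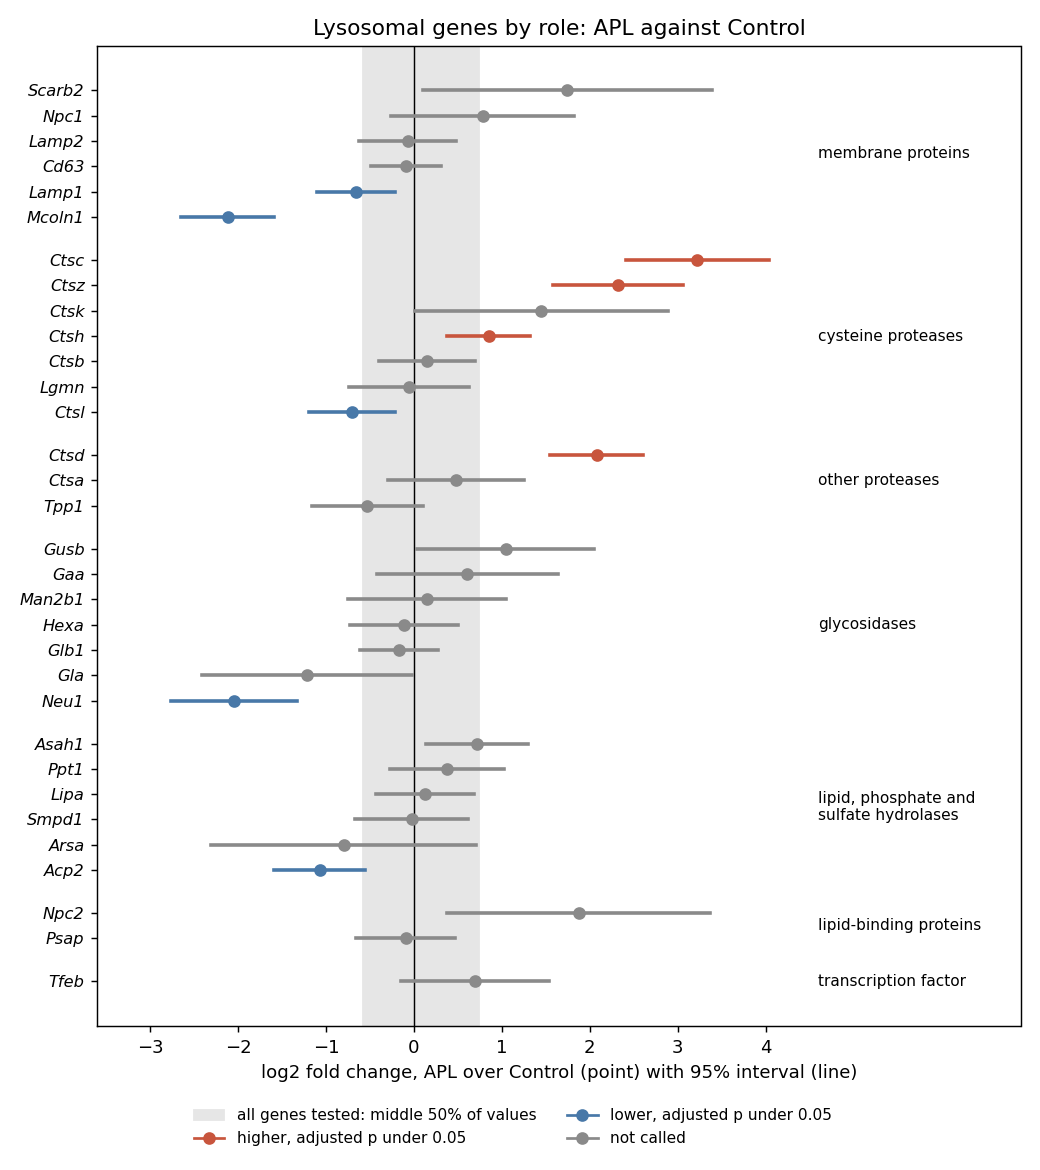
Log2 fold change of each of the 32 lysosomal genes, APL over Control, with its 95% interval from the moderated standard error (n = 4 per group), sorted within roles. The grey band spans the quartiles of all genes tested, and the called genes lie on both sides of 0, from -2.12 for Mcoln1 to 3.23 for Ctsc.

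Promoter sequence was examined because Tfeb acts through the CACGTG element. RefSeq promoter windows of the rat assembly GRCr8, 250 bases before to 50 after the start of a gene, were matched for 27 of the 33 genes. The letters CACGTG stood in 6 of them (22.2%) and in 6.42% of 33465 windows in all. The longer form GTCACGTG, searched on both strands and always containing CACGTG, stood in 5 (18.5%) against 1.85%. These windows were also richer in G and C, with a median of 59.7% against 51.7%, and held a median of 17 CG pairs against 7. Genes with GTCACGTG were Ctsd, Lamp1, Mcoln1, Gaa and Glb1, of which 1 was higher, 2 were lower and 2 were not called. The stretches from 190 bases before the start to 20 after it are shown for the 3 called genes and for Gaa, so that the element can be seen in a gene that rose, in 2 that fell and in one that was not called. Capitals mark GTCACGTG or its reverse complement CACGTGAC, and each line runs 5′ to 3′ on the strand of the gene.
Ctsd, GRCr8 chr1:206968802-206969011, minus strand: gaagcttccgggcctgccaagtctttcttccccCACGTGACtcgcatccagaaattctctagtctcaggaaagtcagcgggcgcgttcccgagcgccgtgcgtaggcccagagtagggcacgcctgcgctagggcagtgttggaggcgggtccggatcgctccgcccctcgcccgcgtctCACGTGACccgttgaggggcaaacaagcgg
Lamp1, GRCr8 chr16:83075044-83075253, minus strand: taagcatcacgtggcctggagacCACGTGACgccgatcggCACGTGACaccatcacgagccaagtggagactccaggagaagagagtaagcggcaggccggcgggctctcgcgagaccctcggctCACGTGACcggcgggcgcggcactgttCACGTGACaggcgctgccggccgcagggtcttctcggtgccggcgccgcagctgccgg
Mcoln1, GRCr8 chr12:6358068-6358277, plus strand: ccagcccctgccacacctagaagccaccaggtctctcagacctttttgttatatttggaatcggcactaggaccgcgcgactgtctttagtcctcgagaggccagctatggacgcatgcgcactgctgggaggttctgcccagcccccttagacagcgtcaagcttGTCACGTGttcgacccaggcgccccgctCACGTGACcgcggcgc
Gaa, GRCr8 chr10:105028165-105028374, plus strand: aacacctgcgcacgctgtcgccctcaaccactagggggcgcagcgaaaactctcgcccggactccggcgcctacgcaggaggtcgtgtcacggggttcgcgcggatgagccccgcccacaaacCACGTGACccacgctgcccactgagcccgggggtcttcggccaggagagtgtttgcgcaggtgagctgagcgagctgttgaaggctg
Lamp1 held 4 copies, Ctsd and Mcoln1 2 each and Gaa 1. A match of letters is a description of the window and says nothing about binding in these kidneys.

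Among the cysteine proteases, 3 of 7 genes were higher and 1 was lower (57.1% called, against 23.5% of all genes). Ctsc, dipeptidyl peptidase 1, which activates granule proteases of immune cells, gave -0.34, 0.05, 0.51 and -0.56 on the 4 Control arrays and 3, 2.59, 3.92 and 3.05 on the 4 APL arrays. The groups were far apart, with the lowest APL value more than 2 log2 units above the highest Control value. Ctsc rose by 3.23 ± 0.35 (log2 fold change ± SE, n = 4 per group, adjusted p = 0.000564), or 9.35-fold, the largest change of the 32 genes in either direction. Ctsz, a carboxypeptidase also called cathepsin X, gave -5.29, -5.92, -5.34 and -6.08 in Control and -3.28, -3.89, -3.50 and -2.66 with APL. All APL values lay above all Control values, but the signal was dim and well above background on only 2 of the 4 Control arrays. Ctsz rose by 2.32 ± 0.32 (adjusted p = 0.00179). With normexp background correction, which changes dim values most, the difference was 0.98 (adjusted p = 0.262) with the 75th percentile and 0.36 with quantile normalization.

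Ctsh, an aminopeptidase, gave 2.09, 2.25, 1.74 and 1.62 in Control and 2.76, 2.76, 2.72 and 2.86 with APL. Its APL values were the most alike of any lysosomal gene in that group, with an SD of 0.061. Ctsh rose by 0.85 ± 0.21 (adjusted p = 0.0214). The call was lost without Control replicate 4 (adjusted p = 0.0515), APL replicate 2 (0.0515) or APL replicate 4 (0.0562) and under normexp at the 75th percentile (0.331).

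Ctsl, the broadly expressed endopeptidase cathepsin L, gave 6.343, 6.003, 6.021 and 6.044 in Control and 5.35, 5.45, 5.75 and 5.06 with APL. It fell by 0.70 ± 0.21 (adjusted p = 0.0475), a difference that only just passed the threshold. That call was lost without any 1 of the arrays other than APL replicate 3 (adjusted p from 0.0764 to 0.110), and without scaling between arrays the value was -0.06. Ctsb, cathepsin B, another broadly expressed protease, gave a difference of 0.14 ± 0.24 (95% interval -0.40 to 0.69), and Lgmn, an asparagine-specific protease abundant in proximal tubule, one of -0.05 ± 0.30 (-0.73 to 0.63). Neither was called. Ctsk, the collagen-degrading cathepsin of osteoclasts and activated fibroblasts, gave -3.10, -2.43, -2.29 and -4.71 in Control and -2.88, -1.63, -0.92 and -1.30 with APL. The groups overlapped through APL replicate 1, and the difference of 1.45 ± 0.62 (adjusted p = 0.132) was 0.51 on slide 1 and 2.39 on slide 2.

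Of the 3 other proteases, Ctsd alone was called (33.3%, against 23.5% of all genes). This gene encodes the aspartic protease cathepsin D, and it gave 1.80, 2.23, 2.48 and 2.39 in Control and 4.04, 4.20, 4.58 and 4.40 with APL. The groups were separated by more than 1.5 log2 units. Ctsd rose by 2.08 ± 0.23 (adjusted p = 0.000588), or 4.23-fold, with 2.11 on slide 1 and 2.05 on slide 2. It kept its call under every alternative run, as did Ctsc and Mcoln1. Ctsa, a serine carboxypeptidase that protects other lysosomal enzymes, gave a difference of 0.48 ± 0.33 (adjusted p = 0.334), and Tpp1, a tripeptidyl peptidase, one of -0.53 ± 0.27 (adjusted p = 0.198).

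**Figure D2:**
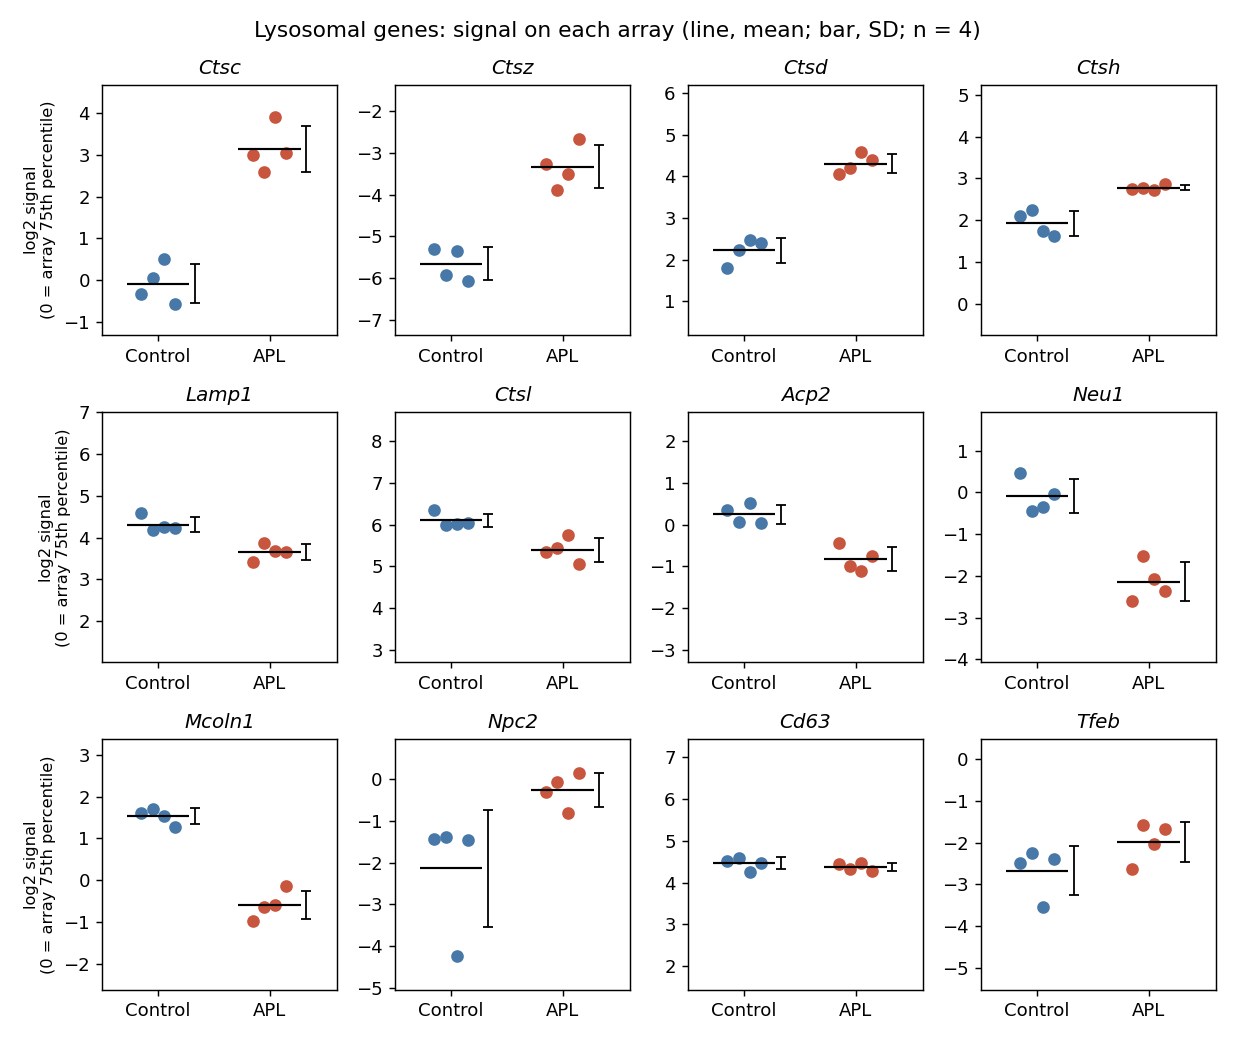
Signal of the 9 called genes and of Npc2, Cd63 and Tfeb on each array, as log2 relative to the array's 75th percentile, with mean (line) and SD (bar) of 4 arrays. Each panel spans 6 log2 units. Points of the 9 called genes do not overlap between groups, and Control replicate 3 lies far below the other Control arrays for Npc2.

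Macrophage markers were higher on the same arrays. Of 23 listed markers 20 were tested, and 11 were higher and 1 lower (60% called, against 23.5% of all genes), with a median of 1.66. Their summed signal ran from 79 to 90.7 times the 75th percentile on the Control arrays and from 109 to 123 on the APL arrays. Bright probes dominate such a sum, and the brightest, Cx3cr1, went the other way, from a mean of 6.03 in Control to 5.42 with APL. Lgals3, Cd14 and Gpnmb rose by 5.68 ± 0.30, 5.13 ± 0.78 and 4.46 ± 0.31, and with normexp the lowest values of Cd14 and Gpnmb were 2.54 and 1.68. The 8 tested markers that were not called went both ways. Adgre1 (-0.34 ± 0.55), Csf1r (-0.24 ± 0.47), Cd86 and Marco lay below 0, and Msr1, C1qa, Ptprc and Aif1 lay above it. Cx3cr1, a chemokine receptor of monocytes and macrophages, was lower by the test at -0.61 ± 0.18, lost that call without any 1 array and turned to 0.03 without scaling. Cd163, Mrc1 and Itgam passed background on no Control array and on 3, 1 and 2 APL arrays, and were not tested. The part of these cells in the higher protease transcripts was not tested.

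Membrane proteins included the gene with the largest fall. Mcoln1 encodes mucolipin-1, the calcium-permeable channel of the lysosomal membrane. Its values were 1.62, 1.71, 1.54 and 1.26 in Control and -0.97, -0.64, -0.59 and -0.15 with APL. The lowest Control array was more than 1 log2 unit above the highest APL array. Mcoln1 fell by 2.12 ± 0.23 (adjusted p = 0.000552), to a level 4.34-fold lower, and the difference was -2.47 on slide 1 and -1.77 on slide 2. Lamp1, a major glycoprotein of the lysosomal membrane, gave 4.59, 4.19, 4.26 and 4.22 in Control and 3.42, 3.87, 3.67 and 3.65 with APL. Lamp1 fell by 0.66 ± 0.19 (adjusted p = 0.0431), and leaving out any 1 of the 8 arrays ended the call (adjusted p from 0.0587 to 0.0974). Without scaling its value was -0.02.

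The other 4 membrane proteins were not called. Lamp2, the close relative of Lamp1 that also serves in chaperone-mediated autophagy, gave 2.53, 1.89, 2.03 and 1.73 in Control and 1.95, 2.25, 1.68 and 2.01 with APL. Its difference was -0.07 ± 0.24, with a 95% interval from -0.62 to 0.48. Cd63, a tetraspanin of late endosomes and lysosomes, was the steadiest, with 4.46 ± 0.14 in Control and 4.37 ± 0.09 with APL (SD, n = 4) and an interval of -0.49 to 0.31. The signs of Lamp2 and Cd63 turned under other scalings. Scarb2, the receptor that carries glucocerebrosidase to lysosomes, varied widely, from -4.11 to -1.46 in Control and from -2.10 to -0.07 with APL. Its difference of 1.75 ± 0.71 (adjusted p = 0.116) was 2.76 on slide 1 and 0.73 on slide 2. Npc1, which exports cholesterol, gave 0.78 ± 0.45 (adjusted p = 0.246) on the brighter of 2 probes. On the dimmer probe the groups did not overlap and the difference was 1.56, and the mean of both probes was called (1.17, adjusted p = 0.00498).

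Of 7 glycosidases measured, 1 was called (14.3%, against 23.5% of all genes). Neu1, the lysosomal sialidase, gave 0.46, -0.46, -0.36 and -0.03 in Control and -2.61, -1.53, -2.08 and -2.37 with APL. The groups lay about 1 log2 unit apart at their nearest. Neu1 fell by 2.05 ± 0.31 (adjusted p = 0.0028), or 4.13-fold, with -2.07 on slide 1 and -2.03 on slide 2. The difference was -1.04 with normexp and the 75th percentile, where its call was lost (adjusted p = 0.16). Ctsa, whose product forms a complex with sialidase and beta-galactosidase, and Glb1, the beta-galactosidase itself, were not called.

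Gla, alpha-galactosidase A, gave -1.89, -0.07, -1.93 and -0.66 in Control and -2.58, -1.45, -3.07 and -2.31 with APL, a difference of -1.22 ± 0.52 (adjusted p = 0.13). Gusb, beta-glucuronidase, differed by 1.04 ± 0.44 (adjusted p = 0.123), and by 0.93 on its second probe. The mean of its probes was called at an adjusted p of 0.0306. Gaa, the acid alpha-glucosidase that degrades glycogen, differed by 0.61 ± 0.45 (adjusted p = 0.36). Control replicate 3, at 1.39, exceeded all APL values of Gaa, and without it the difference was 1.03 (adjusted p = 0.0484). Hexa, a beta-hexosaminidase subunit, Glb1 and Man2b1, an alpha-mannosidase, gave -0.11 ± 0.27, -0.17 ± 0.19 and 0.15 ± 0.39. For these 3 the 95% intervals lay within -0.74 and 1.05. Both probes of Glb1 gave small negative values, -0.17 and -0.43.

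Among hydrolases of lipids, phosphate and sulfate esters, 1 of 6 genes was called (16.7%, against 23.5% of all genes). Acp2, lysosomal acid phosphatase, gave 0.36, 0.07, 0.51 and 0.05 in Control and -0.45, -0.98, -1.11 and -0.75 with APL. Acp2 fell by 1.07 ± 0.22 (adjusted p = 0.0121), a 2.10-fold difference. It lost its call without scaling between arrays (-0.43, adjusted p = 0.202) and under normexp at the 75th percentile (-0.76, adjusted p = 0.172). Asah1, acid ceramidase, gave 1.22, 0.86, 0.66 and 1.21 in Control and 1.65, 2.12, 1.81 and 1.24 with APL. The groups of Asah1 did not overlap, though by a narrow margin, and the difference of 0.72 ± 0.25 was not called (adjusted p = 0.0754). Lipa, which hydrolyses cholesteryl esters, Smpd1, acid sphingomyelinase, and Ppt1, a thioesterase, differed by 0.12 ± 0.24, -0.02 ± 0.28 and 0.38 ± 0.28. Arsa, a sulfatase, ranged from -2.10 to -0.29 in Control and from -3.84 to -0.88 with APL, and its interval of -2.30 to 0.71 was wide.

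Npc2, the soluble cholesterol carrier that works with Npc1, gave -1.44, -1.40, -4.24 and -1.47 in Control and -0.31, -0.08, -0.80 and 0.15 with APL. Every APL value lay above every Control value, and Control replicate 3 lay far below the others. The difference of 1.87 ± 0.65 was not called (adjusted p = 0.0736). Without Control replicate 3 it was smaller, 1.17, and was called (adjusted p = 0.0248). Psap, the precursor of the saposins that present lipids to hydrolases, differed by -0.09 ± 0.24 (95% interval -0.65 to 0.47). Tfeb, the transcription factor, gave -2.49, -2.24, -3.55 and -2.41 in Control and -2.64, -1.58, -2.03 and -1.67 with APL, a difference of 0.69 ± 0.36 (adjusted p = 0.208) with overlapping groups.

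Spread within a group differed among the genes. The SD over 4 arrays ran from 0.142 (Cd63) to 1.40 (Npc2) in Control, with a median of 0.34, and from 0.061 (Ctsh) to 1.21 (Arsa) with APL, with a median of 0.39. It was over 0.5 for 9 genes in Control and for 10 with APL. The widest 95% intervals belonged to Scarb2 (0.10 to 3.39), Arsa (-2.30 to 0.71), Npc2 (0.37 to 3.37) and Ctsk (0.01 to 2.89). The sizes of these differences were therefore poorly determined. Only the interval of Arsa included 0, but the intervals are not adjusted for the number of genes, and none of these genes was called. Control replicate 3 gave the highest Control value for 11 of the 32 genes and the lowest for 8.

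Further lysosomal genes were taken from lists by function. Of 23 other hydrolases tested, 3 were higher and 2 lower (21.7% called, against 23.5% of all genes, median 0.24). Dpp7, a dipeptidyl peptidase, gave -1.52, -1.98, -5.50 and -6.68 in Control and 1.51, 1.19, 2.04 and 1.77 with APL. Its groups were clearly separated, but the Control arrays disagreed among themselves, and it was well above background on 3 of them. Dpp7 rose by 5.55 ± 1.13 (adjusted p = 0.0108), a value that normexp brought down to 2.98 at the lowest. Dnase2, the acid nuclease, rose by 2.01 ± 0.29 (adjusted p = 0.00232). Plbd2 fell by 0.85 ± 0.26 (adjusted p = 0.048), a call that did not hold without any 1 array but APL replicate 3 (0.0698 to 0.115).

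Of 18 other lysosomal membrane proteins, 2 were higher and 4 lower (33.3% called, against 23.5% of all genes, median 0.04). Cd68, a lysosomal glycoprotein that is also a macrophage marker, rose by 2.62 ± 0.36 (adjusted p = 0.00165). Slc17a5, the sialic acid exporter, gave 0.59, 0.98, 0.70 and 0.65 in Control and -2.18, -1.29, -2.56 and -1.14 with APL. Slc17a5 fell by 2.52 ± 0.34 (adjusted p = 0.00166), so the sialidase Neu1 and the transporter of its product were both lower. Tpcn1, an endolysosomal cation channel, fell by 1.83 ± 0.39 (adjusted p = 0.0129). Slc36a1, a proton-coupled amino acid transporter, fell by 1.39 ± 0.39 (adjusted p = 0.0366) and Abca2, a lipid transporter, rose by 0.89 ± 0.27 (adjusted p = 0.0447). The call of Slc36a1 did not hold without Control replicate 1, 2 or 4 or APL replicate 2, 3 or 4 (0.0528 to 0.0962), and Abca2 without any 1 array but Control replicate 2 (0.0624 to 0.105). The remaining lower gene was Ostm1, named after its values were seen, at -1.07 ± 0.32 (adjusted p = 0.0442). That call was lost without any 1 of the 8 arrays (0.0511 to 0.096), with either normexp setting, with quantile normalization (0.0508), with the detected-probe percentile (0.0527), without scaling (0.308) and with the mean over probes (0.121).

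Of 20 proton pump subunits tested, 0 were higher and 3 lower. The share called, 15%, was below the 23.5% of all genes, and the share lower, also 15%, was near the 11.5% of all genes. Their median was -0.20, and 0.44 without scaling. Atp6v0d1 fell by 1.55 ± 0.30 (adjusted p = 0.0085), Atp6v0c, the proteolipid ring subunit, by 1.18 ± 0.21 (adjusted p = 0.00552) and Atp6v1b2 by 1.1 ± 0.32 (adjusted p = 0.0419). None of these calls held without scaling between arrays (adjusted p = 0.0635, 0.0776 and 0.26). That of Atp6v1b2 was also lost without Control replicate 1, 2 or 3 or APL replicate 2, 3 or 4 (0.0579 to 0.103). The summed signal of the 20 subunits was 142 to 149 on the Control arrays and 104 to 114 on the APL arrays. Of 18 sorting genes 1 was called (5.56%, against 23.5% of all genes). Igf2r, the large mannose 6-phosphate receptor that delivers new hydrolases, gave 0.87, 1.41, 1.71 and 0.24 in Control and -2.47, -0.47, -1.60 and -0.91 with APL. Igf2r fell by 2.42 ± 0.50 (adjusted p = 0.0111), while M6pr, the small receptor, gave 0.36 ± 0.20 (adjusted p = 0.229).

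Among inhibitors and cofactors, 2 of 8 genes were higher and 1 lower (37.5% called, against 23.5% of all genes). Their median was 0.91, and 0.36 with normexp and quantile normalization. Grn, the progranulin precursor, rose by 1.29 ± 0.38 (adjusted p = 0.042), Cst3, the secreted cathepsin inhibitor cystatin C, by 0.97 ± 0.29 (adjusted p = 0.0447), and Sumf1, which activates sulfatases, fell by 1.26 ± 0.25 (adjusted p = 0.00971). Grn lost its call without Control replicate 2 or any 1 APL array (0.0761 to 0.0909) and Cst3 without any 1 array but APL replicate 1 (0.0651 to 0.101). In the Tfeb family and its control, 2 of 16 were higher and 2 lower (25% called, near the 23.5% of all genes). Rragd, a GTPase that brings the kinase mTORC1 to lysosomes, gave -4.06, -5.89, -3.29 and -5.84 in Control and -0.53, -1.13, -1.59 and -1.40 with APL. Rragd rose by 3.61 ± 0.62 (adjusted p = 0.0049), was detected over background on 2 Control arrays, and gave 1.11 at the lowest with normexp. Tfe3, the relative of Tfeb, rose by 1.05 ± 0.27 (adjusted p = 0.0259), a call lost without Control replicate 1, 2 or 3 or APL replicate 2, 3 or 4 (0.0508 to 0.0628). Lamtor5 and Lamtor1, parts of the lysosomal scaffold for mTORC1, fell by 1.33 ± 0.28 and 1.33 ± 0.39. Without scaling between arrays Lamtor5 was at -0.69 and was not called (adjusted p = 0.103). Lamtor1 (adjusted p = 0.0418) lost its call without any 1 array but Control replicate 4 (0.0652 to 0.0929).

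**Figure D3:**
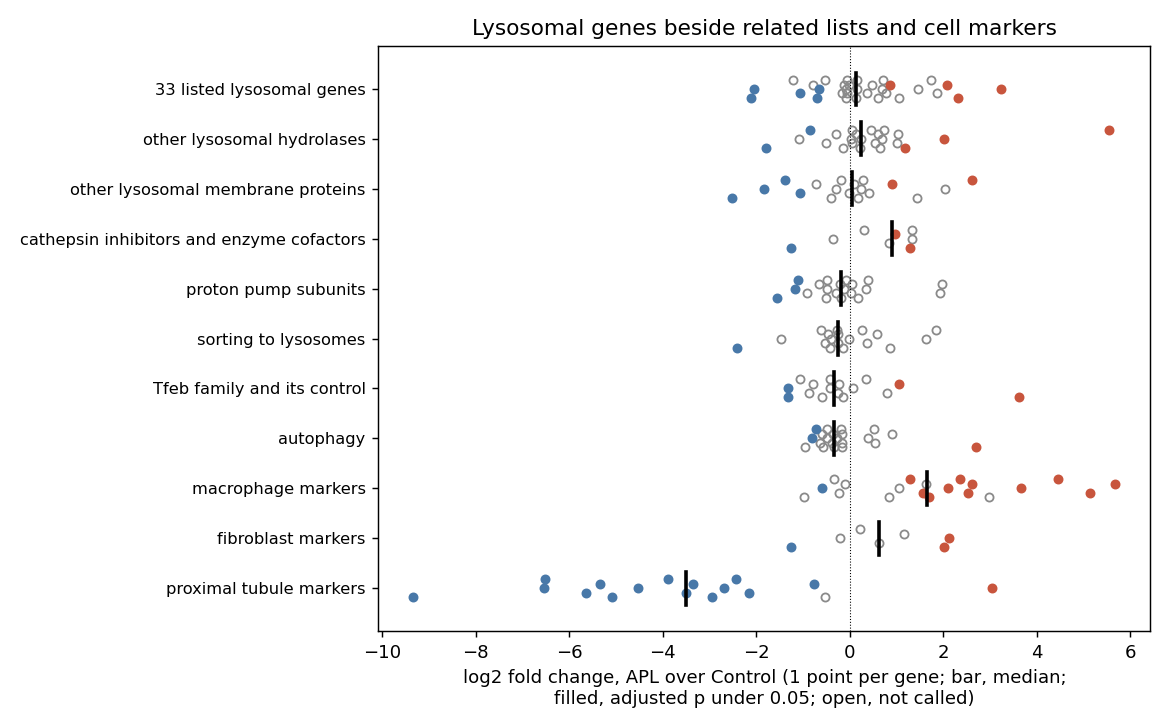
Log2 fold change, APL over Control, of the lysosomal genes, of related lists and of cell markers, 1 point per gene with the median as a bar. The lysosomal lists scatter around 0, apart from the inhibitors and cofactors with a median of 0.91. No gene was called higher among proton pump subunits and sorting genes. The proximal tubule markers centre on -3.51 and the macrophage markers on 1.66.

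Of 21 autophagy genes, 1 was higher and 2 lower (14.3% called, against 23.5% of all genes). Their median was -0.33, and 0.31 without scaling. Sqstm1, the cargo receptor p62, fell by 0.73 ± 0.20 (adjusted p = 0.0307) and Atg5 by 0.81 ± 0.21 (adjusted p = 0.0279). The call of Sqstm1 did not hold without Control replicate 1 or 4 or any 1 APL array (0.0569 to 0.0766), and Atg5 without any 1 array but Control replicate 1 (0.0538 to 0.0718). The gene called higher was Uvrag, named after its values were seen. It passed background on no Control array, so it passed the filter on dim probes only through the APL arrays, and its groups overlapped. As processed here the difference was at least 3.31-fold (adjusted p = 0.0415). That bound did not hold with normexp, where the difference was 0.84 with the 75th percentile and 0.30 with quantile normalization on the log2 scale. That call was lost with a floor of 0.02 (0.0861), with either normexp setting (0.433 and 0.196), with quantile normalization (0.0508), with the detected-probe percentile (0.0536), with no detection filter (0.0661), with slide as a block (0.0597) and without any 1 array but APL replicate 4 (0.0561 to 0.0998).

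Proximal tubule markers, from a lysosome-rich segment, fell far more than lysosomal genes. Of 17 tested, 15 were lower and 1 higher (94.1% called, against 23.5% of all genes), with a median of -3.51. The differences of Slco1a1, Pck1 and Slc22a6 were -9.34 ± 0.96, -6.54 ± 0.36 and -6.51 ± 0.37, and Slc5a2 was the higher one at 3.04 ± 0.66. Slco1a1 was well above background on 2 APL arrays and gave -5.27 with normexp at the least. Summed signal of these markers was 615 to 696 on the Control arrays and 58 to 75.8 on the APL arrays, while that of the 23 other hydrolases was 67.5 to 78.8 and 65.6 to 91.9. The part of these lower markers in the lower lysosomal transcripts was not tested. Of 7 fibroblast markers 2 were higher and 1 lower (42.9% called, against 23.5% of all genes). Col1a1 and Col3a1 rose by 2.12 ± 0.38 and 2.02 ± 0.44, and Pdgfra was lower by the test at -1.25 ± 0.31. The Pdgfra call did not hold without Control replicate 2 or 3, nor without APL replicate 1 or 2 (0.0578 to 0.0621). Summed signal of the 7 fibroblast markers was 14.5 to 18 in Control and 29.9 to 93.2 with APL.

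Other cell markers moved in both directions. Of 8 markers of other kidney cells, 50% were called, against 23.5% of all genes. Aqp2 and Cdh16, the kidney cadherin, rose by 1.93 ± 0.48 and 1.14 ± 0.22. Umod and Pecam1, an endothelial marker, fell by 3.85 ± 1.06 and 2.79 ± 0.49. The call of Aqp2 did not hold without Control replicate 3 or 4 or APL replicate 1 or 3 (0.0533 to 0.063), and Umod without any 1 array but APL replicates 2 and 4 (0.0522 to 0.0777). Of 6 lymphocyte and neutrophil markers tested, 2 were called higher (33.3% called, against 23.5% of all genes), S100a8 and S100a9, both made by neutrophils. Both passed the filter on dim probes only through the APL arrays, where they were higher, so the filter partly fixed this share. No Control array was well above background for S100a8, and its difference, at least 33.9-fold as processed here, was 4.76 on the log2 scale with a floor of 0.02 and 1.91 and 1.61 with normexp. S100a9 was well above background on only 1 Control array, so its difference of 2.77 ± 0.34 rests on values near background, and it was 0.93 and 0.37 with normexp. Lymphocyte markers Cd3e and Cd8a passed background on no Control array and on 1 APL array each, and were not tested.

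**Figure D4:**
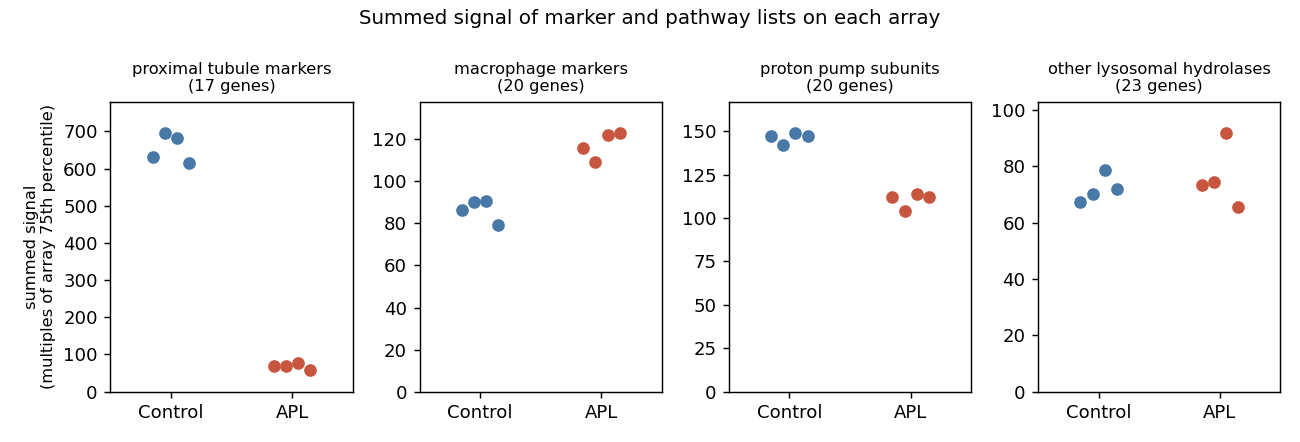
Summed signal of 4 lists on each array, in multiples of the array's 75th percentile, with axes starting at 0. Bright probes weigh most in each sum, and the sums depend on the scaling between arrays. The 4 APL arrays lie below the Control arrays for proximal tubule markers and proton pump subunits and above them for macrophage markers, while for the other hydrolases APL replicate 3 lies above and APL replicate 4 below all Control arrays.

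The 9 calls differed in how much they rested on processing. Ctsc ranged from 2.75 to 3.86, Ctsd from 1.83 to 2.72 and Mcoln1 from -2.26 to -1.48 over all 21 alternatives, and all 3 were called in each. Because the groups of these 9 genes did not overlap, the sign within each slide was fixed in advance, and only the sizes are informative. On slides 1 and 2 the differences were 2.94 and 3.51 for Ctsc, 2.02 and 2.63 for Ctsz and 0.586 and 1.117 for Ctsh. They were -0.93 and -1.21 for Acp2, -0.74 and -0.58 for Lamp1 and -0.77 and -0.63 for Ctsl, beside those given above. With slide as a block, Lamp1 (adjusted p = 0.0583) and Ctsl (0.0643) were no longer called. Neu1 and Acp2 kept their calls with any 1 array left out. Ctsz also kept its call with any 1 array left out, while Ctsh, Lamp1 and Ctsl did not. Among the other genes named above, normexp with the 75th percentile also ended the calls of Uvrag, Ostm1, Plbd2, Atp6v1b2, Slc36a1, Abca2, Cst3, Grn, Sumf1, Tfe3, Lamtor1, Sqstm1, Atg5, Cx3cr1, Aqp2, Cdh16, Pecam1, Pdgfra and S100a9. The difference was -0.87 for Pecam1, 0.93 for S100a9, -0.41 for Slc36a1 and -0.25 for Atg5. Leaving out the scaling between arrays also ended the calls of Sumf1 (-0.62), Plbd2, Slc36a1, Lamtor1, Sqstm1, Atg5 and Pdgfra.

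**Figure D5:**
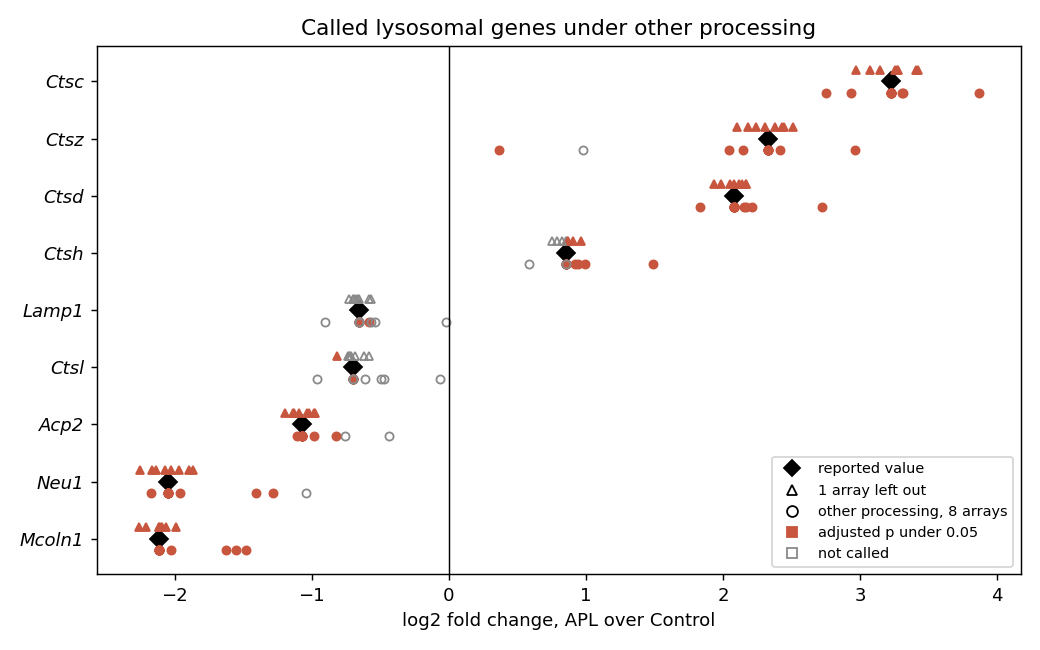
Log2 fold change of the 9 called genes as reported (diamonds), with 1 array left out (triangles) and with other processing of all 8 arrays (circles), filled red where the adjusted p was under 0.05. Ctsc, Ctsd and Mcoln1 stay filled throughout, while the Lamp1 and Ctsl symbols are mostly open and reach -0.02 and -0.06 without scaling.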

How the data were processed

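Total RNA was labelled with Cy3 and run on 8 single-colour Agilent arrays. Per the file headers, spots were read with Feature Extraction 10.5.1.1, and the deposited scanner files hold linear intensity values, including a processed signal with background and spatial trend removed. A deposited table of the authors' log2 values was centred per probe (93.7% of its values lay within 0.01 of the rebuilt ones, column medians -0.135 to 0.0759) and served as an alternative.

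From the processed signal, non-uniform spots were dropped, spots of 1 probe averaged, values divided by the array's 75th percentile and floored at 0.005. Probes well above background on at least 4 of 8 arrays were kept (24343 of 30367), and the brightest probe stood for a gene. Symbols came from RefSeq (GRCr8) by accession for 18643 probes. Limma 3.58.1 (R 4.3.3) compared APL with Control over all genes and was tested on simulated data. No probe was saturated.

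The genes and lists were chosen with earlier results of these data known. Beyond the 33 genes, the rule names from each list up to 3 called genes per direction, by size, whose groups do not overlap. Some genes that the rule names are not reported here. Fold changes are APL over Control with moderated SE. A lower bound of a fold sets the brighter mean against, per array, the higher of the dim probe's value and the lowest signal well above background. Alternatives changed background correction, scaling, floor, filter, probe choice, slide block and replicate block, or left out 1 array.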

Additional observations from a re-analysis of the deposited data

Results flagged for a closer look

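In 9 of 144 groups of 4 arrays checked, 1 array lay far from the other 3 (Dixon's criterion), where chance flags about 1 in 20. Among lysosomal genes these were Npc2 on Control replicate 3, at -4.24 against -1.47 to -1.40, Man2b1 on APL replicate 3, at 0.97 against -0.62 to -0.45, Ctsb on APL replicate 3, at 5.59 against 5.03 to 5.09, and Ctsl on Control replicate 1, at 6.343 against 6.003 to 6.044. Among genes of the other lists, APL replicate 3 was high for Tfe3 (3.005) and Slc22a6 (0.21). Atg5 was low on APL replicate 4 (-1.79), Cdh16 was low on Control replicate 1 (1.99), and S100a8 was high on Control replicate 4 (-6.63), the other Control arrays being at the floor.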

How the results depend on the processing

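Of 21 alternatives, 13 used all 8 arrays and 8 left 1 out. With normexp and the 75th percentile, 1040 genes were higher and 973 lower in all, against 2557 and 2472 as reported. The lysosomal genes then had 2 higher and 1 lower with a median of 0.015, and Ctsb (-0.052), Lipa (-0.093) and Arsa (0.083) changed sign. Without scaling between arrays, 5886 were higher and 1143 lower, with 13 and 2 among lysosomal genes and a median of 0.77. The median of all genes was then 0.60 instead of -0.03, and 83.7% of calls were higher instead of 50.8%. Signs turned there for Lamp2 (0.57), Cd63 (0.55), Lgmn (0.58), Tpp1 (0.11), Hexa (0.52), Glb1 (0.47), Smpd1 (0.61), Psap (0.55) and Cx3cr1 (0.033). Lysosomal genes called lower numbered 3 with quantile normalization of the processed signal, with the percentile of probes detected on all arrays (median 0.22) and with slide as a block. Signs turned with normexp and quantile normalization for Lamp2 (0.063), Cd63 (0.045), Lgmn (0.029), Smpd1 (0.188) and Psap (0.02), with quantile normalization of the processed signal for Lamp2 (0.055), Cd63 (0.027), Lgmn (0.03) and Smpd1 (0.132), and with the detected-probe percentile for Lamp2 (0.019), Lgmn (0.036) and Smpd1 (0.065). The causes were not tested.

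With 1 array left out, 1609 to 2205 genes were higher (1609 without APL replicate 4 and 1625 without APL replicate 2). The genes lower in all numbered 1777 to 2019. Of the lysosomal genes, 3 to 6 were then higher and 3 to 4 lower. That was 18.8% to 28.1% called, against 15.8% to 19.6% of all genes. The lysosomal median was 0.032 to 0.198. Signs turned within -0.17 to 0.09 for Lamp2, -0.22 to 0.13 for Lgmn, -0.268 to 0.037 for Hexa, -0.23 to 0.30 for Man2b1, -0.17 to 0.12 for Smpd1 and -0.232 to 0.007 for Psap.

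Samples with the same replicate number did not deviate together (r from -0.0151 to 0.0475), so the numbers were not taken to pair them. With replicate number as a block, 1644 genes were higher and 1616 lower, and 7 lysosomal genes were called, 6 of them the same as without it. Gla gained a call (adjusted p = 0.0386), and Lamp1 (0.129), Ctsh (0.0728) and Ctsl (0.113) lost theirs.

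Signal near background limits Ctsz, Dpp7, Rragd, Uvrag, S100a8 and S100a9 in Control and Slco1a1 with APL.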
